A study of Mus musculus with 18 samples.

Results

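Cultured mouse cortical astrocytes carrying the Gs-coupled designer receptor rM3Ds were compared directly with astrocytes carrying the Gi-coupled receptor hM4Di, 90 min after both had been given the same ligand. The comparison rests on 6 of the 18 RNA sequencing libraries of the series, chosen by their labels as the 3 rM3Ds and the 3 hM4Di libraries of the 90 min table. All cells had been grown in serum-containing medium, transfected with plasmid by the HilyMax reagent and treated 7 days later with 8 µM deschloroclozapine (DCZ), the ligand of both receptors. The first group carried rM3Ds with DCZ for 90 min, the second carried hM4Di with DCZ for 90 min, and the control group of 3 libraries carried EGFP, a fluorescent protein with no receptor function, and received the same DCZ. A further 90 min group carried the Gq-coupled receptor hM3Dq and entered the fit only for its spread. Receptor-bearing cells left without DCZ are not among the groups, so the response to the ligand and the presence of each plasmid cannot be told apart. The labels do not give the promoter of the plasmids, the share of cells transfected, or the age or strain of the animals.

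Designer receptors of this kind are muscarinic receptors altered to answer a synthetic ligand in place of acetylcholine. A Gs-coupled receptor activates adenylyl cyclase and raises cyclic AMP (cAMP), while a Gi-coupled receptor inhibits the same enzyme and also releases βγ subunits that act on other effectors. Cyclic AMP activates protein kinase A, which phosphorylates the transcription factor CREB and, through the salt-inducible kinases, lets the CRTC coactivators enter the nucleus. Genes with a cAMP response element near their start are then transcribed within minutes to hours. In astrocytes this pathway is known for its links to noradrenaline and adenosine signalling, to glycogen breakdown and to the secretion of growth factors. Setting rM3Ds against hM4Di compares cells whose receptors are known to push this pathway in opposite directions.

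Library totals were 16.1 to 17.7 M counts with rM3Ds, 18.2 to 25.2 M with hM4Di and 17.2 to 21.5 M with EGFP, so that a floor of 3 counts was worth 0.119 to 0.187 CPM, the count per M counts of a library. Libraries did not group by receptor first. In a principal component analysis of the 12 libraries at 90 min, the first component held 52.5% of the variance and set rM3Ds 2, rM3Ds 3 and EGFP control 1 apart from the other 9. Within the 6 libraries compared here the first component held 61.2% and again set rM3Ds 2 and 3 apart, and the second held 16.6% and set hM4Di 1 apart from the other 5. Where a log2 fold change named below moved by more than 1.5 times without the first 3 or without hM4Di 1, the value without them is given for most genes. The labels do not say whether replicates were separate cultures, so every p-value measures how far libraries differ, part of which may be technical.

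The astrocyte label was set against marker genes. Levels of Aqp4, the astrocyte water channel, were 99.9, 126 and 145 CPM with rM3Ds, 128, 90.0 and 84.9 CPM with hM4Di and 55.0, 92.1 and 104 CPM with EGFP. Aldh1l1, a folate enzyme used as a pan-astrocyte marker, stood at 61.7 to 123 CPM in the 6 libraries, and the astrocyte transcription factor Sox9 at 207 to 318 CPM. Gfap, the intermediate filament of mature and reactive astrocytes, was low at 3.93, 10.1 and 9.53 CPM with rM3Ds and 16.4, 1.95 and 3.32 CPM with hM4Di. The microglial genes P2ry12, Cx3cr1 and Ptprc did not exceed 0.158 CPM in any of the 6. Of the endothelial genes, Cldn5 did not exceed 0.346 CPM and Pecam1 0.610 CPM, whereas Tek reached 20.4 CPM, Ly6c1 19.9 CPM and Flt1 9.18 CPM. The collagen gene Col1a1, also made by fibroblasts and mural cells, reached 652 to 1916 CPM. In bulk RNA, fewer cells of a type and less RNA per cell cannot be told apart. The targeted constructs could not be checked, because the counted mouse Chrm3 gene can hold reads of the rat M3 receptor in rM3Ds in part at most. Its level was 22.7, 11.1 and 6.97 CPM with rM3Ds, 5.74, 6.36 and 8.28 CPM with hM4Di and 1.8, 6.29 and 10.1 CPM with EGFP, so the groups overlapped.

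Sequences at the start of 3 of the genes described below are shown because they hold the motifs linked in textbooks to the responses at issue, the cAMP response element for Nr4a2 and Dio2 and the interferon-stimulated response element for Bst2. Each is the RefSeq window of 300 bases on the GRCm38.p6 assembly, with 250 bases before and 50 after the start of the gene, read on the gene's strand. Of the 41 named genes, 31 have such a window in the table used. Vgf has none there, so its start was not searched for these motifs. Capitals mark TGACG, a partial site of the cAMP response element, and its reverse complement CGTCA, in Nr4a2 (chr2:57123954-57124253, minus strand), the full element TGACGTCA in Dio2 (chr12:90738989-90739288, minus strand), and GAAA, any 2 bases and GAAA again, searched on both strands, in Bst2 (chr8:71537423-71537722, minus strand).
Nr4a2: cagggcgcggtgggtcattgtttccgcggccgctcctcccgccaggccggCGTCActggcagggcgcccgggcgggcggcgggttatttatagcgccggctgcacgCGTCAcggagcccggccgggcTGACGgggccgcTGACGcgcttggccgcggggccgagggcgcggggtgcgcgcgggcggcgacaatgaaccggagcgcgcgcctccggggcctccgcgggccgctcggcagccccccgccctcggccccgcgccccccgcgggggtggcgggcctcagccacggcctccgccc
Dio2: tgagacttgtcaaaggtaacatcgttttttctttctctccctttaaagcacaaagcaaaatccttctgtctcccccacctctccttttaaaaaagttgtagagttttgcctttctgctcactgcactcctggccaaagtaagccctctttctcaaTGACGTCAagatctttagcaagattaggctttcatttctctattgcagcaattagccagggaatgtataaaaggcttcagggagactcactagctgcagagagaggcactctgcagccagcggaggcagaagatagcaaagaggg
Bst2: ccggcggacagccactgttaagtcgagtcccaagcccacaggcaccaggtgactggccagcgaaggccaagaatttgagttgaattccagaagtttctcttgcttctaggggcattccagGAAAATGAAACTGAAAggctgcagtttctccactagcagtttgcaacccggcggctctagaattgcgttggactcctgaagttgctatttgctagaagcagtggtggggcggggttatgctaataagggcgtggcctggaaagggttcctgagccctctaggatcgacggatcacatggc

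The Nr4a2 window holds 4 partial sites and no full element. The Dio2 window holds 1 full element, which contains a partial site on each strand. The 2 matches in the Bst2 window overlap. Among all 27025 genes with a window, 23% hold a partial site, 2.03% a full element and 3.99% the interferon motif. Of the 34 CREB target genes tested, 26 have a window, and 21 of them hold a partial site and 5 a full element. Of the 37 interferon-stimulated genes tested, 28 have a window, of which 13 hold the interferon motif, 10 a partial cAMP site (35.7%) and none a full cAMP element. These matches describe letters in a window and not binding.

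Vgf and Nr4a2 had higher levels in the rM3Ds libraries than in the hM4Di libraries, and no other gene passed the test. DESeq2, run as an alternative, called 205 genes, 135 higher and 70 lower. The test that gave the 2 calls was edgeR's quasi-likelihood test over 13584 genes, a gene being called at an adjusted p below 0.05. Calls in the higher direction were 0.0147% of the genes and calls in the lower direction 0. Without adjustment, p was below 0.05 for 851 genes higher with rM3Ds (6.26%) and for 504 lower (3.71%). The count of calls turned on single libraries. Without rM3Ds 1 there were 392, of which 249 were higher (1.8%) and 143 lower (1.03%), Vgf and Nr4a2 among them. Vgf alone was called without rM3Ds 2 or without EGFP control 3, Arhgap8 alone without hM4Di 1, and none without rM3Ds 3, hM4Di 2 or hM4Di 3.

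Vgf (Entrez 381677) encodes a secreted neuropeptide precursor whose transcription CREB is known to drive in neurons and endocrine cells. Its level was 7.19, 6.21 and 7.28 CPM with rM3Ds, against 1.11, 1.13 and 1.53 CPM with hM4Di and 0.426, 0.744 and 0.461 CPM with EGFP. Every rM3Ds library stood above every hM4Di library, and every hM4Di library above every EGFP library. The log2 fold change, rM3Ds minus hM4Di, was 2.46 ± 0.25 (SE), a 5.49-fold difference, with an adjusted p of 0.0110.

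Nr4a2 (Entrez 18227), an orphan nuclear receptor and immediate-early gene, had 25.7, 28.4 and 30.9 CPM with rM3Ds, against 10.4, 11.4 and 11.8 CPM with hM4Di and 5.82, 9.55 and 8.47 CPM with EGFP. Here too the 3 groups did not overlap. The difference was 2.53-fold, or 1.34 ± 0.17 on the log2 scale, with an adjusted p of 0.0356. When rM3Ds 2, rM3Ds 3 and EGFP control 1 were left out, the log2 fold change was 2.53 for Vgf and 1.20 for Nr4a2, but with rM3Ds then a single library, whose spread is borrowed from the rest, neither passed (adjusted p 0.183 and 0.228). With only the 6 libraries fitted neither passed either, at an adjusted p of 0.105 for both.

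**Figure D1:**
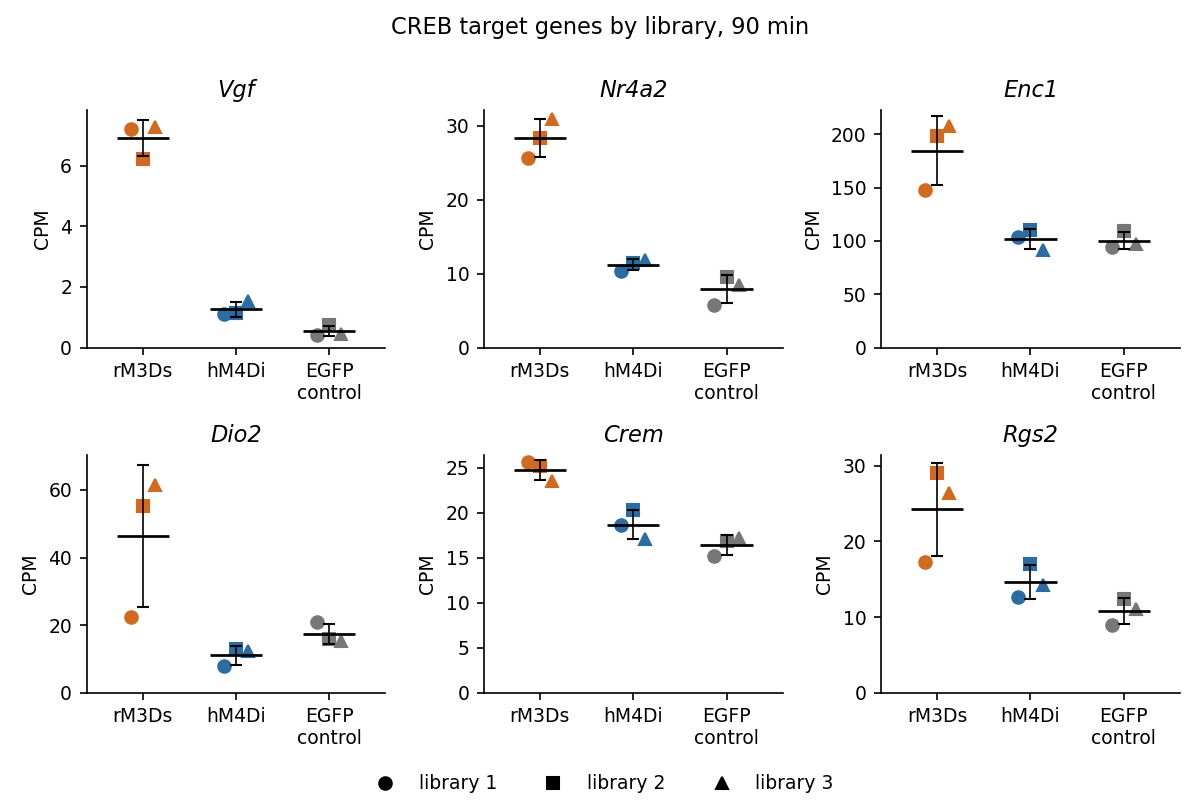
Levels of 6 CREB target genes in CPM (vertical axes, from 0) in each of the 3 rM3Ds, 3 hM4Di and 3 EGFP control libraries at 90 min; symbols mark the library number, horizontal bars the mean and error bars the SD. All 3 rM3Ds values lie above all 3 hM4Di values in each of the 6 genes, and the rM3Ds libraries lie close together for Vgf, Nr4a2 and Crem but not for Dio2, where library 1 is at 22.4 CPM and libraries 2 and 3 are at 55.3 and 61.5 CPM.

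CREB target genes as a group lay higher with rM3Ds. Of 39 listed genes 34 were tested, and 5 (Sst, Pck1, Crh, Nptx2 and Pcsk1) were below the filter on low counts. Besides Vgf and Nr4a2, which passed, 28 members had a log2 fold change above 0 and 4 had one below 0, so that 30 of 34 (88.2%) were above 0, against 49% of all genes tested. In 14 members (41.2%) the rM3Ds and hM4Di libraries did not overlap with rM3Ds higher, against 5.84% of all genes, and in none with rM3Ds lower, against 5.19%. The median of the list was 0.39 on the log2 scale, and that of all genes tested was -0.01. Without rM3Ds 2, rM3Ds 3 and EGFP control 1 the median was 0.33, with 30 of 34 still above 0, and without hM4Di 1 it was 0.47. The list was put together with results of these libraries known, and its median is a description.

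Among the transcription factors of the list, Crem, which encodes the cAMP-inducible repressor ICER from an internal promoter, had 25.6, 25.2 and 23.5 CPM with rM3Ds, against 18.6, 20.3 and 17.1 CPM with hM4Di. Its groups did not overlap, and its log2 fold change was 0.41 ± 0.09, with an adjusted p of 0.214. Nr4a3, a relative of Nr4a2, had 90.6, 71.7 and 72.8 CPM with rM3Ds, against 51.7, 39.2 and 40.6 CPM with hM4Di, and did not pass at 0.84 ± 0.34 (adjusted p 0.452). Nr4a1, the remaining member of that family, had 149, 168 and 153 CPM with rM3Ds, against 146, 113 and 124 CPM with hM4Di. The 3 family members thus ran in the order Nr4a2, Nr4a3 and Nr4a1 by size of log2 fold change, the smallest being 0.29 ± 0.15, and the difference between them was not tested. Fos, the immediate-early factor often used as an activity marker, had 18.5, 21.3 and 18.9 CPM with rM3Ds, against 13.3, 15 and 16.9 CPM with hM4Di, a log2 fold change of 0.38 ± 0.15 (adjusted p 0.441).

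Enc1, an actin-binding protein, had 148, 198 and 208 CPM with rM3Ds, against 104, 110 and 91.4 CPM with hM4Di. It came nearest to a call among the higher genes that did not pass, with a log2 fold change of 0.85 ± 0.13 and an adjusted p of 0.0918, and was at 0.54 without the libraries that stand apart. Dio2, the deiodinase by which astrocytes activate thyroid hormone, had 22.4, 55.3 and 61.5 CPM with rM3Ds, against 7.91, 13 and 12.4 CPM with hM4Di, with 2.06 ± 0.33 as its log2 fold change (adjusted p 0.141). The EGFP values were 20.8, 16 and 15.2 CPM, so all 3 hM4Di libraries were below every EGFP library as well as below every rM3Ds library, the only listed CREB target with that order. Leaving out the libraries that stand apart brought its log2 fold change to 1.02.

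Ptgs2, the inducible prostaglandin synthase, had 19.2, 24.3 and 25.2 CPM with rM3Ds, against 8.39, 16.6 and 9.28 CPM with hM4Di, and a log2 fold change of 1.00 ± 0.25 (adjusted p 0.238). Ramp3, a partner protein of calcitonin-type receptors, had 6.16, 3.77 and 3.55 CPM with rM3Ds, against 1.07, 3.20 and 3.32 CPM with hM4Di. Neither overlapped, although in Ramp3 the nearest rM3Ds and hM4Di libraries were close. Sik1, the kinase that restrains CRTC coactivators, overlapped at 43.3, 53.8 and 54.3 CPM with rM3Ds, against 44.5, 34.7 and 35.5 CPM with hM4Di. Per1, a clock gene with a cAMP element, was level at 44.3, 36.3 and 39.5 CPM with rM3Ds, against 44.6, 34.3 and 37.4 CPM with hM4Di, a log2 fold change of 0.04 ± 0.19. The 4 members below 0 were Id2, Tac1, Arc and Gem, from -0.04 to -0.35, Gem being at 0.31 without the libraries that stand apart, and Tac1 was at or near 0 counts throughout.

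Some large fold changes in the list followed the libraries that stand apart. Areg, an EGF-family growth factor, had the list's largest log2 fold change at 4.11 ± 1.43, from 2.68, 37.2 and 30.7 CPM with rM3Ds, against 1.23, 1.69 and 1.16 CPM with hM4Di. EGFP control 1 was at 30.2 CPM, so Areg was high in the 3 libraries that stand apart, and its log2 fold change without them was 0.98. Bdnf, the neurotrophin, had 6.27, 23.6 and 21.1 CPM with rM3Ds, against 8.19, 8.40 and 7.07 CPM with hM4Di and 34.8 CPM in EGFP control 1, and its log2 fold change went to -0.32 without those libraries. Dusp1, a MAP kinase phosphatase, followed the same libraries, at 20.1, 41.3 and 39.0 CPM with rM3Ds, against 17.6, 14.8 and 15.4 CPM with hM4Di and 55.5 CPM in EGFP control 1.

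Each receptor was also set against the EGFP cells, to show which of the groups lay away from the cells with no receptor. The comparisons share the 3 EGFP libraries, so their values are given side by side only. Vgf had a log2 fold change of 3.66 ± 0.27 with rM3Ds (adjusted p 0.000458) and of 1.20 ± 0.27 with hM4Di (adjusted p 0.774), each minus EGFP. Nr4a2 had 1.84 ± 0.17 with rM3Ds (adjusted p 0.00203) and 0.50 ± 0.17 with hM4Di (adjusted p 0.833). These were the only calls, 2 for rM3Ds (115 without rM3Ds 1) and 0 for hM4Di. At an unadjusted p below 0.05 there were 407 genes higher (3%) and 168 lower (1.24%) with rM3Ds, and 315 higher (2.32%) and 430 lower (3.17%) with hM4Di, and DESeq2 called 55 genes with rM3Ds and 35 with hM4Di.

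The median of the 34 CREB targets minus EGFP was 0.41 with rM3Ds and 0.16 with hM4Di, against -0.02 and -0.01 for all genes tested in the same order. In 12 of the 34 (35.3%) every rM3Ds library was above every hM4Di and every EGFP library, which held for 1.32% of all genes. These were Vgf, Nr4a1, Nr4a2, Nr4a3, Crem, Fos, Rgs2, Dio2, Pde4b, Ptgs2, Ramp3 and Enc1. In 1 of the 34, Dio2, every hM4Di library was below every rM3Ds and every EGFP library, or 2.94% against 1.54% of all genes. The summed level of the 39 listed genes was 1790 to 1980 CPM with rM3Ds, 1460 to 1540 CPM with hM4Di and 1380 to 1450 CPM with EGFP, so on this sum the hM4Di libraries were above the EGFP libraries and not below them.

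**Figure D2:**
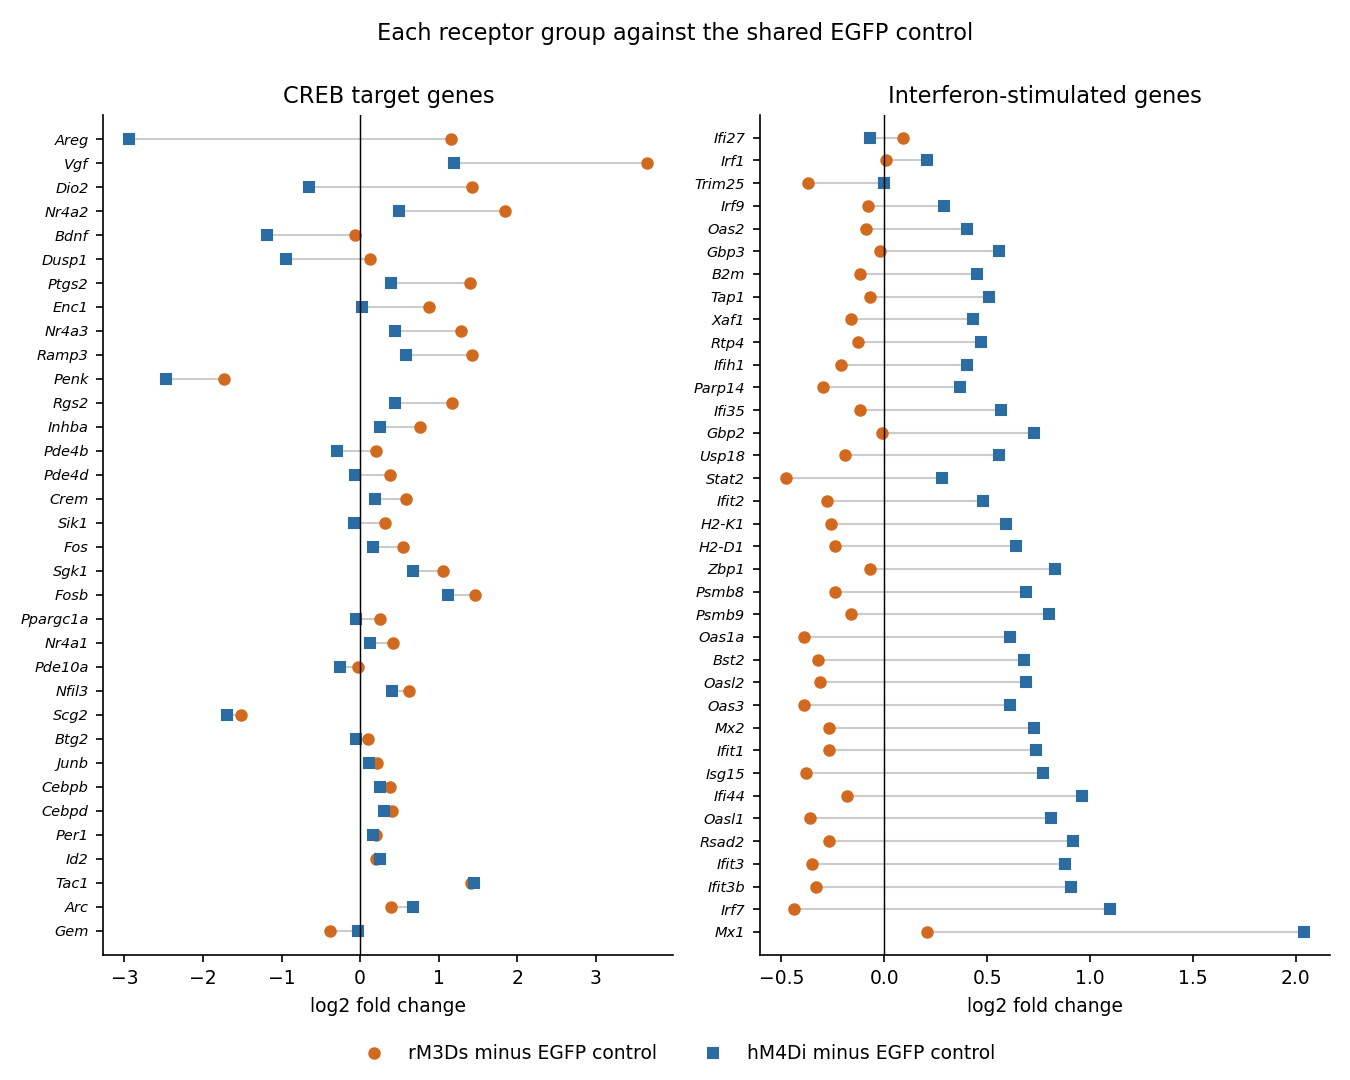
Log2 fold changes (horizontal axes) of the 34 CREB target genes and 36 of the 37 interferon-stimulated genes tested, with rM3Ds minus EGFP control as circles and hM4Di minus EGFP control as squares; genes are ordered by rM3Ds minus hM4Di, and both comparisons share the 3 EGFP libraries. Medians of the CREB targets are 0.41 (rM3Ds) and 0.16 (hM4Di), and medians of all 37 interferon-stimulated genes are -0.24 (rM3Ds) and 0.61 (hM4Di).

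The machinery that makes and reads cAMP had no member called by edgeR or DESeq2 apart from Crem, which DESeq2 called, and the phosphodiesterases given below. Of 22 genes tested for adenylyl cyclases and G protein subunits, 8 had a log2 fold change above 0 and 14 below, with a median of -0.02. Adcy1, a calcium-stimulated cyclase, had the largest at 2.69 ± 1.05 (adjusted p 0.428), from 2.51, 20.7 and 24.7 CPM with rM3Ds, against 4.07, 1.26 and 2.06 CPM with hM4Di and 23.0, 2.23 and 1.56 CPM with EGFP. It was high in the 3 libraries that stand apart and was at 0.02 without them. Gnas, which encodes the Gs alpha subunit, ran the other way with those libraries, at 5720, 3020 and 2840 CPM with rM3Ds, against 5160, 5710 and 6380 CPM with hM4Di, and had a log2 fold change of 0 without them.

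The γ subunits Gng12 and Gng2 were the other members with the smallest p. Gng12 had 135, 155 and 152 CPM with rM3Ds, against 130, 132 and 123 CPM with hM4Di, a log2 fold change of 0.20 ± 0.07 (adjusted p 0.410), or 0.08 without the libraries that stand apart. Gng2 had 1.48, 1.16 and 0.809 CPM with rM3Ds, against 3.36, 1.95 and 1.27 CPM with hM4Di, at -0.93 ± 0.38 (adjusted p 0.443), or -0.57 without those libraries and -0.47 without hM4Di 1, and its groups overlapped.

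Among 20 effector genes, which encode protein kinase A subunits, the cAMP-gated exchange factor EPAC, kinase inhibitors and anchoring proteins, 13 were above 0, the range was -0.40 to 0.30 and the median 0.06. Prkar2b, a regulatory subunit of protein kinase A, had 53.9, 55.6 and 57.8 CPM with rM3Ds, against 45.0, 52.5 and 45.1 CPM with hM4Di, a log2 fold change of 0.23 ± 0.10 (adjusted p 0.461). Rapgef3, the gene of EPAC, had 0.25 ± 0.13 (0.08 without the libraries that stand apart), and Pkig, an inhibitor of the kinase, had -0.16 ± 0.12, both with overlapping groups. The catalytic subunits Prkaca and Prkacb stood at -0.01 ± 0.10 and 0.04 ± 0.08. Of the 11 genes of the CREB family and its coactivators, Crem and Sik1 were at 0.41 and 0.40. Without the libraries that stand apart, Crem was at 0.46 and Sik1 at 0.19. With all libraries the other 9, among them Creb1 (0.06 ± 0.12) and Crtc1 (-0.11 ± 0.11), lay between -0.11 and 0.13.

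The phosphodiesterases, which break down cAMP and of which several are induced by it, had a median log2 fold change of 0.49 over 13 tested genes, with 10 above 0 and none called by edgeR. Pde4b, a cAMP-specific enzyme, had 39.4, 39.9 and 39.7 CPM with rM3Ds, against 18.7, 33.5 and 32.5 CPM with hM4Di and 26.8, 37.4 and 39.3 CPM with EGFP. Its rM3Ds values were alike and above every hM4Di value, with EGFP control 3 almost level, and its log2 fold change of 0.49 ± 0.20 (adjusted p 0.446) was also 0.49 without the libraries that stand apart but 0.27 without hM4Di 1, its lowest library. Pde4d overlapped at 31.1, 35.9 and 48.7 CPM with rM3Ds, against 39.3, 24.4 and 20.7 CPM with hM4Di.

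Larger values in this family followed rM3Ds 2 and 3. Pde3b, a cGMP-inhibited phosphodiesterase, had 2.79, 6.04 and 6.91 CPM with rM3Ds, against 1.94, 1.43 and 1.53 CPM with hM4Di, a log2 fold change of 1.68 ± 0.41 (adjusted p 0.216), which was 0.78 without the libraries that stand apart. Its relative Pde3a had 1.37, 7.26 and 9.09 CPM with rM3Ds, against 2.10, 0.822 and 0.686 CPM with hM4Di, at 2.28 ± 0.64 with all libraries and 0.17 without those 3. Pde4a had -0.43 ± 0.15, or -0.11 without them, and overlapped. DESeq2 called 2 of the 13 (15.4%, against 0.994% of all genes) higher, Pde3b and Pde3a, and none lower. Without rM3Ds 1 edgeR called the same 2 higher and Pde4a lower. The family's median was 0.12 without the 3 libraries, with 8 of 13 above 0.

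Genes that turn receptors off had a median of 0.15 over 18 tested members, 12 of them above 0. Rgs2, a regulator of G protein signalling that cAMP is known to induce, had 17.3, 29 and 26.4 CPM with rM3Ds, against 12.6, 17.0 and 14.3 CPM with hM4Di and 8.99, 12.4 and 11.1 CPM with EGFP. The lowest rM3Ds library was just above the highest hM4Di library. Its log2 fold change was 0.73 ± 0.20 (adjusted p 0.272), and 0.25 without the libraries that stand apart. Rgs9 and Rgs12 did not overlap either, at 0.95 ± 0.33 and 0.27 ± 0.12, or 0.33 and 0.13 without those libraries. Rgs3 was lower in every rM3Ds library, at -0.32 ± 0.15, or -0.18 without them. The receptor kinase genes Grk2, Grk5 and Grk6 and the arrestins Arrb1 and Arrb2 lay between -0.29 and 0.17.

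Of 32 genes for receptors that couple to Gs or Gi, 20 were tested, with a median of 0.17 and 12 above 0. None was called by edgeR, and DESeq2 called 1 of the 20 (5%) higher, S1pr1, against 0.994% of all genes. S1pr1, a sphingosine phosphate receptor, had 13, 24.1 and 27.4 CPM with rM3Ds, against 9.42, 9.74 and 10.5 CPM with hM4Di, a log2 fold change of 1.12 ± 0.27 (adjusted p 0.224), or 0.40 without the libraries that stand apart. Gabbr1, a subunit of the GABA-B receptor, had 70.3, 78.9 and 88.1 CPM with rM3Ds, against 61.8, 54.9 and 65.0 CPM with hM4Di, at 0.39 ± 0.11 (adjusted p 0.286), or 0.22 without those libraries. Adcyap1r1, the receptor for the peptide PACAP, had 1.03, 1.88 and 1.74 CPM with rM3Ds, against 0.752, 0.346 and 0.264 CPM with hM4Di.

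Interferon-stimulated genes lay lower with rM3Ds than with hM4Di. None of the 37 listed genes was called, 36 had a log2 fold change below 0, against 51% of all genes, and in 31 (83.8%) every rM3Ds library was below every hM4Di library, against 5.19%. The median was -0.87 and the range -1.82 to 0.16. DESeq2 called 23 of the 37 (62.2%) lower and none higher, against 0.515% of all genes lower and 0.994% higher, and edgeR without rM3Ds 1 called 11 (29.7%) lower and none higher, against 1.03% and 1.8%. The same tool called 6 of the 34 CREB targets higher, namely Vgf, Nr4a2, Dio2, Enc1, Ptgs2 and Crem (17.6%), and none lower. Without rM3Ds 1 edgeR called 5 of them higher (14.7%), namely Vgf, Nr4a2, Dio2, Enc1 and Rgs2, and 1 lower (2.94%), Gem.

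**Figure D3:**
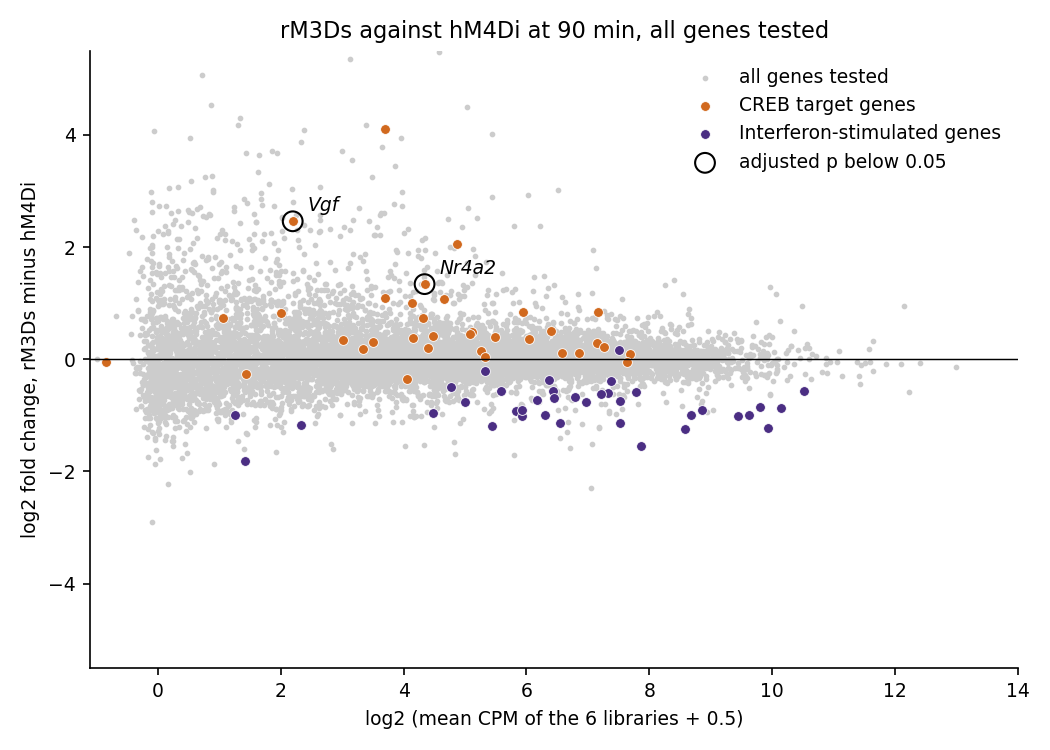
Log2 fold change, rM3Ds minus hM4Di (vertical axis), against log2 of the mean CPM of the 6 libraries plus 0.5 (horizontal axis) for the genes tested, with CREB target genes, interferon-stimulated genes and the called genes Vgf and Nr4a2 marked; 6 genes lie outside the vertical range of 5.5 either way. CREB targets lie mostly above 0 (30 of 34) and interferon-stimulated genes below (36 of 37).

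Bst2, which encodes tetherin, a membrane protein that holds back budding viruses, had 595, 527 and 458 CPM with rM3Ds, against 1240, 970 and 934 CPM with hM4Di and 741, 618 and 608 CPM with EGFP. Both receptor groups were clear of the EGFP libraries, rM3Ds below and hM4Di above. Its log2 fold change was -0.99 ± 0.14, with an adjusted p of 0.0719. Ifi35, an interferon-induced leucine zipper protein, had the same adjusted p at -0.69 ± 0.10, with 71.1, 68.6 and 60.3 CPM with rM3Ds, against 122, 105 and 96.1 CPM with hM4Di. Its EGFP values of 68.5, 72.0 and 76.7 CPM overlapped those of rM3Ds.

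Irf7, the transcription factor that amplifies the interferon response, had 129, 118 and 110 CPM with rM3Ds, against 570, 227 and 242 CPM with hM4Di and 181, 151 and 154 CPM with EGFP, a log2 fold change of -1.54 ± 0.30 (adjusted p 0.155), or -0.97 without hM4Di 1. In this gene hM4Di 1 was far above hM4Di 2 and 3, which were themselves above every EGFP and every rM3Ds library. Ifit3, an antiviral protein with tetratricopeptide repeats, followed the same order with a log2 fold change of -1.23 ± 0.24 (-0.79 without hM4Di 1), though its reads and those of the near-identical Ifit3b cannot be separated with certainty. Isg15, a ubiquitin-like modifier, had -1.14 ± 0.24, with EGFP control 1 at 202 CPM above hM4Di 3 at 178 CPM. Ifi27 alone was above 0, at 0.16 ± 0.33 (-0.17 without hM4Di 1), and was low in hM4Di 1 at 80.6 CPM.

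Some single genes known from antigen processing, named from the interferon list or for their small p, had values below 0 and did not pass. Psmb8, an immunoproteasome subunit, had 48.4, 36.2 and 32.0 CPM with rM3Ds, against 88.8, 67.8 and 65.4 CPM with hM4Di, a log2 fold change of -0.93 ± 0.16 (adjusted p 0.147), or -0.61 without the libraries that stand apart. Psmb10, another such subunit, had -0.49 ± 0.09, B2m, the light chain of class I molecules, -0.57 ± 0.16 (-0.31 without those libraries), and the class I genes H2-T10 and H2-T22 -1.11 ± 0.19 and -0.88 ± 0.16 (-0.68 and -0.82 without those libraries), with reads between such class I copies uncertain. Rtp4 (-0.60 ± 0.11), the ISG15-conjugating enzyme gene Ube2l6 (-0.61 ± 0.11) and the interferon-inducible GTPase gene Tgtp1 (-1.59 ± 0.25) were also among the 15 genes with the smallest p, of which 9 lay below 0 and 6 above. The 6 were Vgf, Nr4a2, Enc1, Dio2, Adamts1 and Tinf2, and in all 15 the groups did not overlap.

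The interferon list was read by library. Its summed level was 7940, 6670 and 6300 CPM with rM3Ds, against 16700, 10500 and 10800 CPM with hM4Di and 8210, 7880 and 8470 CPM with EGFP. All 3 hM4Di libraries were above the others and hM4Di 1 was highest, while rM3Ds 1 lay between the EGFP libraries and rM3Ds 2 and 3 below them. Without hM4Di 1 the list's median was -0.50, with 37 of 37 below 0. Without rM3Ds 2, rM3Ds 3 and EGFP control 1 it was -0.78, and without all 4 libraries -0.42, with 35 of 37 below 0.

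Against the EGFP cells the list's median was -0.24 with rM3Ds, with 34 of 37 below 0, against 54.5% of all genes, and 0.61 with hM4Di, with 36 of 37 above 0, against 47.9%. In 19 of the 37 (51.4%) every hM4Di library was above every rM3Ds and EGFP library, against 1.62% of all genes, and in 10 (27%) every rM3Ds library was below every hM4Di and EGFP library, against 0.832%. Defining microglial markers were at or near 0 in these libraries, as given above.

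**Figure D4:**
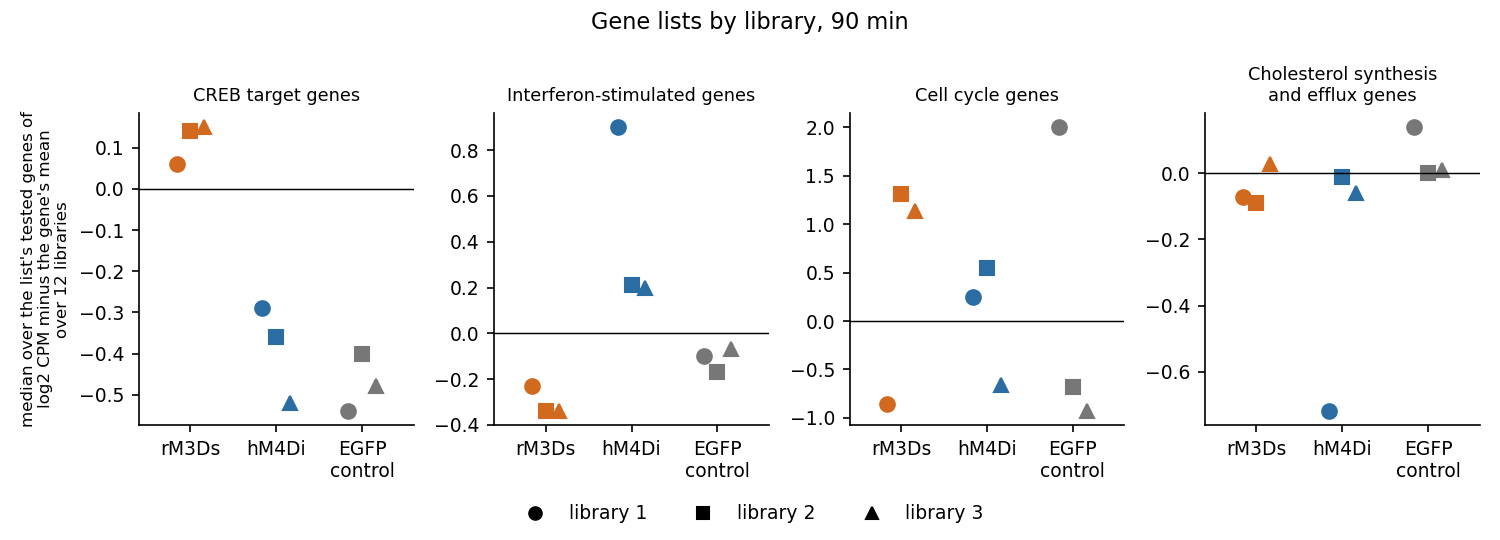
For 4 gene lists, the median over the tested members of log2 CPM minus the gene's mean over the 12 libraries (vertical axes, scaled per panel) in each rM3Ds, hM4Di and EGFP control library; symbols mark the library number. The CREB target medians of rM3Ds (0.06 to 0.15) are above those of hM4Di (-0.52 to -0.29), which overlap those of EGFP (-0.54 to -0.40). The 12 libraries include hM3Dq, with CREB target medians of 0.65 to 0.72, so a value below 0 need not be below EGFP. The interferon medians of hM4Di are 0.90, 0.21 and 0.20. The cell cycle medians split the rM3Ds libraries (-0.86, 1.31 and 1.14), and hM4Di 1 is alone at -0.72 in the cholesterol list.

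Other response genes were less uniform. Of 37 immediate-early genes 22 were above 0, with a median of 0.07 and Nr4a2 the only call by edgeR. Fosl2, an AP-1 subunit, had 164, 206 and 227 CPM with rM3Ds, against 155, 115 and 93.8 CPM with hM4Di (0.72 ± 0.18, adjusted p 0.246). Ier3 and Maff did not overlap either at 0.68 ± 0.14 and 0.76 ± 0.25, and the 3 genes were at 0.44, 0.42 and 0.46 without the libraries that stand apart. DESeq2 called 3 of the 37 (8.11%) higher, Nr4a2, Ier3 and Fosl2, against 0.994% of all genes. In 8 of the 37 (21.6%) every rM3Ds library was above every hM4Di library, against 5.84% of all genes. In none was every rM3Ds library below, against 5.19%. Egr1, an immediate-early factor driven mainly through ERK, had 12.6, 12.2 and 8.84 CPM with rM3Ds, against 26.9, 13.9 and 9.97 CPM with hM4Di, and overlapped at -0.60 ± 0.41, or -0.08 without hM4Di 1. Of 20 ERK feedback genes 16 were above 0, with a median of 0.19, and none was called by edgeR. DESeq2 called 1 of the 20 (5%) higher, Ier3, against 0.994% of all genes.

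Growth factor genes had a median of 0.26 over 33 tested, 23 above 0 and none called by edgeR. DESeq2 called 1 of the 33 (3.03%) higher, Il6, against 0.994% of all genes. Gdnf, a survival factor for dopaminergic neurons, had 7.87, 8.70 and 6.72 CPM with rM3Ds, against 4.98, 5.24 and 2.95 CPM with hM4Di, a log2 fold change of 0.82 ± 0.37 (adjusted p 0.492). Vegfa, which drives vessel growth, had 81.0, 80.6 and 83.8 CPM with rM3Ds, against 57.8, 68.7 and 73.1 CPM with hM4Di, at 0.30 ± 0.09 (adjusted p 0.286). Both were clear of overlap, as were Hbegf and Clcf1 at 0.46 ± 0.17 and 0.35 ± 0.11.

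Inflammatory genes were mixed, with several chemokines at higher values with rM3Ds and others that followed single libraries. Of 25 tested 12 were above 0, with a median of -0.09, and none was called by edgeR. In 8 (32%) every rM3Ds library was above every hM4Di library, against 5.84% of all genes, and in 1 (4%) below, against 5.19%. DESeq2 called 5 (20%) higher, against 0.994% of all genes, namely Cxcl5, Il6, Ptgs2, Cxcl1 and Cd14, and none lower. Cxcl5, a neutrophil chemokine, had 9.92, 25.4 and 22.7 CPM with rM3Ds, against 2.41, 5.24 and 4.90 CPM with hM4Di and 0.520, 3.09 and 2.07 CPM with EGFP, a log2 fold change of 2.21 ± 0.55 (adjusted p 0.238), or 1.26 without the libraries that stand apart. Cxcl1, its close relative, had 13, 25.4 and 22.3 CPM with rM3Ds, against 4, 9.13 and 9.07 CPM with hM4Di, at 1.45 ± 0.39 (adjusted p 0.267), or 0.83 without them. Il6 reached only 0.399, 2.61 and 2.24 CPM with rM3Ds, against 0, 0.13 and 0.211 CPM with hM4Di, so hM4Di was at or near the floor of 3 counts. Complement C3 overlapped widely, at 1030, 178 and 173 CPM with rM3Ds, against 179, 437 and 537 CPM with hM4Di. Without the libraries that stand apart the list's median was 0.36, with 22 of 25 above 0.

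Matrix genes had a median of 0.24 over 35 tested, with 25 above 0 and none called by edgeR. DESeq2 called 5 (14.3%, against 0.994% of all genes) higher, namely Adamts1, Col11a1, Lox, Timp3 and Col8a1, and none lower. Adamts1, a secreted protease that cleaves proteoglycans, had 53.6, 69.2 and 64.4 CPM with rM3Ds, against 35.1, 26.6 and 21.3 CPM with hM4Di and 35.4, 28.1 and 22.4 CPM with EGFP. Its hM4Di and EGFP values were alike, and its log2 fold change was 1.17 ± 0.20 (adjusted p 0.147), or 0.96 without the libraries that stand apart. Tinf2, a telomere protein, had 26.6, 26.7 and 22.4 CPM with rM3Ds, against 17.1, 14.6 and 16.5 CPM with hM4Di, at 0.65 ± 0.12 (adjusted p 0.147).

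Homeostatic astrocyte genes had a median of 0.13 over 25 tested, with 18 above 0 and none called by edgeR. DESeq2 called Glul and S100b higher (8%, against 0.994% of all genes). Without rM3Ds 1 edgeR called these and Gpc4 higher (12%, against 1.8% of all genes). Glul, the glutamine synthetase of astrocytes, had 148, 163 and 160 CPM with rM3Ds, against 125, 107 and 116 CPM with hM4Di, a log2 fold change of 0.44 ± 0.09 (adjusted p 0.168) without overlap. S100b, a calcium-binding astrocyte protein, had 3.25, 94.5 and 87.1 CPM with rM3Ds, against 3.68, 2.47 and 2.00 CPM with hM4Di, so its log2 fold change of 4.49 rested on rM3Ds 2 and 3 and was 0.26 without them and EGFP control 1. Glycogen, glycolysis and lactate genes had a median of 0.06 over 34 tested.

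Cell cycle genes turned with the choice of libraries. All 38 lay above 0 in log2 fold change, the median being 0.64, but none had separate groups, and all 38 were below 0, with a median of -1.05, once rM3Ds 2, rM3Ds 3 and EGFP control 1 were left out. Mki67, a marker of dividing cells, had 4.28, 42.0 and 52.2 CPM with rM3Ds, against 18.8, 20.7 and 3.22 CPM with hM4Di and 79.9, 6.69 and 4.15 CPM with EGFP. The libraries within each group differed more than the groups. The summed cell cycle level was 297, 894 and 877 CPM with rM3Ds, against 510, 581 and 327 CPM with hM4Di, and its part in the results that differ with these libraries was not tested.

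**Figure D5:**
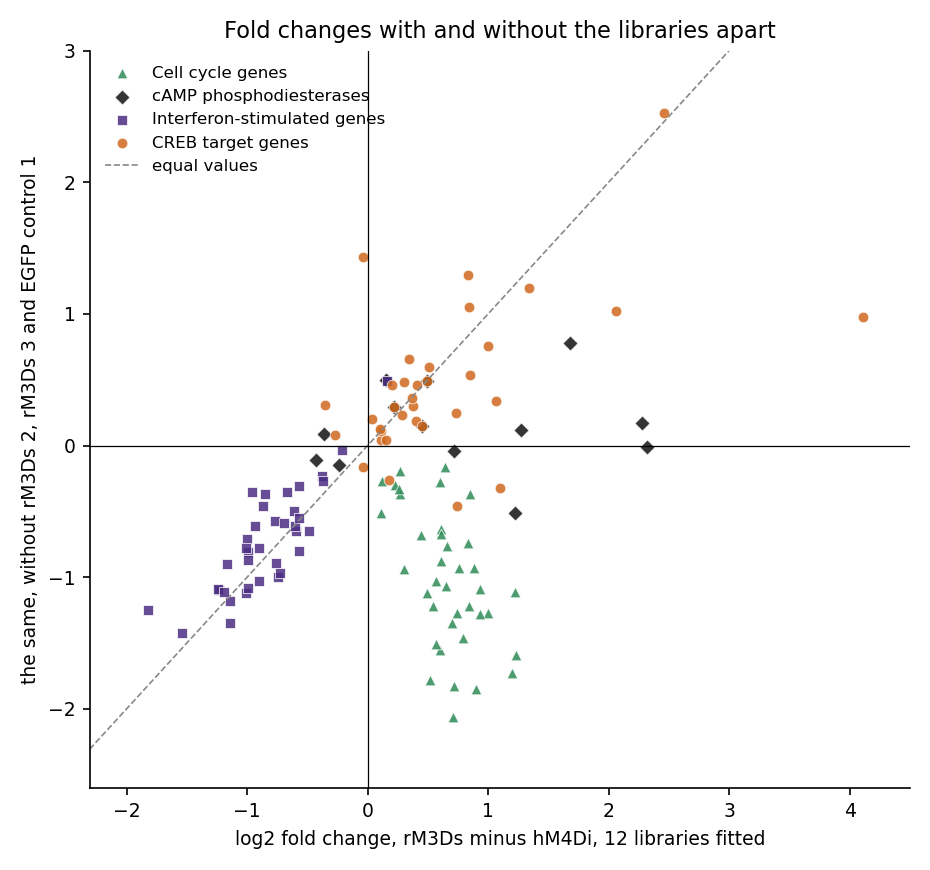
Log2 fold change, rM3Ds minus hM4Di, with all 12 libraries fitted (horizontal axis) and without rM3Ds 2, rM3Ds 3 and EGFP control 1 (vertical axis) for 4 gene lists; the dashed line marks equal values. Interferon-stimulated genes stay below 0 except Ifi27 (median -0.87 and -0.78), CREB targets stay mostly above 0 (0.39 and 0.33), phosphodiesterases drop toward 0 (0.49 and 0.12) and cell cycle genes pass to the other side (0.64 and -1.05).

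Markers of other cell types had few tested members. Neuron markers (5 of 15 tested) summed to 128 to 221 CPM with rM3Ds and 103 to 194 CPM with hM4Di, and oligodendrocyte lineage markers (4 of 13) to 97.9 to 115 CPM with rM3Ds and 99.1 to 116 CPM with hM4Di. Among microglial markers, Tmem119, a membrane protein, had 1.60 to 2.27 CPM with rM3Ds and 1.90 to 4.47 CPM with hM4Di, and the macrophage protein gene Cd68 did not exceed 0.909 CPM in the 6 libraries. Csf1r, a growth factor receptor of microglia, had 0.166 to 0.456 CPM with rM3Ds and 0.514 to 0.736 CPM with hM4Di, without overlap, and did not pass (adjusted p 0.504). Fibroblast and mural markers (12 of 16) summed to 2660 to 3980 CPM with rM3Ds and 2370 to 4340 CPM with hM4Di. Endothelial markers (6 of 12) summed to 30.8 to 33.6 CPM with rM3Ds and 36.6 to 44 CPM with hM4Di, and ependymal and choroid markers (3 of 11) to 133 to 256 CPM with rM3Ds and 219 to 298 CPM with hM4Di. Of these lists only the endothelial sum kept the groups apart, and its part in the results was not tested.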

How the data were processed

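Poly-A RNA of cultured cortical astrocytes was sequenced, per the labels' protocols. The authors deposited estimated counts for each gene without normalisation, of which 55.9% at 90 min were not whole. The mm39 build and the tools Salmon 1.8.0 and fastp 0.23.4 are listed in the submitters' processing notes, which give them no role. How transcripts were summed to genes and whether strand was used are not given in the sources used here, so overlapping, antisense and near-identical genes are uncertain. Symbols were matched by Entrez identifier for 99.55% of the 22078 rows, and the 100 unmatched rows held 0.0325% of the counts. Chrm4, Mmp3 and mitochondrial transcripts are not analysed here. Some listed genes count toward list totals but are not reported singly here.

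Counts were rounded and tested with edgeR 4.0.16 (R 4.3.3) by its quasi-likelihood test with TMM normalisation, robust dispersion and the default filter on low counts. The 12 libraries at 90 min were fitted together with 8 residual degrees of freedom, and p-values were adjusted by Benjamini and Hochberg over 13584 genes. CPM values use the TMM library sizes. The SE of a log2 fold change is its size divided by the square root of F. DESeq2 1.42.0, limma-voom (limma 3.58.1), DESeq2's size factors in edgeR, no filter, only the 6 libraries, a replicate block, leaving out libraries and a covariate marking those that stand apart were alternatives. The test was tried on simulated counts. With 3 against 3 libraries no exact permutation p below 0.1 is possible, so none is given. The SE holds the spread between libraries as the fit estimated it, whereas the floor of 3 counts reflects counting only.

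The members and the 29 gene lists were chosen with earlier results of these data known. Named genes were Vgf, Nr4a2, Crem, Rgs2, Dio2, Sik1, Pde4b, Pde4d, Per1, Fos, Egr1, Nr4a1, Chrm3 and Gfap, the called genes, the 15 with the smallest p, and the 3 with the smallest p in each of the 7 cAMP lists, 41 in all. Any other gene was named after its values were seen. The 29 lists share genes and were described by counts and medians, with no set test. Groups "do not overlap" where every library of one is above every library of the other. The files use mm39, and the promoter windows and their coordinates are those of GRCm38.p6.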

Additional observations from a re-analysis of the deposited data

How the results depend on the processing

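Direct calls between rM3Ds and hM4Di numbered 2 with edgeR and also 2 with DESeq2's size factors, with no filter and with limma-voom, but 205 with DESeq2 (135 higher, 70 lower). They numbered 0 with only the 6 libraries fitted, 0 without the 3 libraries that stand apart, and 1 (Vgf) with a term for them. Leaving out 1 library at a time gave 0 to 392 calls. Without rM3Ds 1 there were 392 (249 higher, 143 lower), without rM3Ds 2 only Vgf, without hM4Di 1 only Arhgap8, without EGFP control 3 only Vgf, and without rM3Ds 3, hM4Di 2 or hM4Di 3 there were 0. Without the 3 libraries and hM4Di 1, an alternative chosen after seeing the data, the 2 calls were Arhgap8 and Nr4a3. The log2 fold change of Vgf was 2.37 to 2.62 and that of Nr4a2 1.16 to 1.45 over 19 alternatives.

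For rM3Ds minus EGFP the count of 2 was 0 with only the libraries compared, 0 without the 3 libraries, 7 without these and hM4Di 1, 55 with DESeq2 and 2 to 115 when leaving out 1 library. For hM4Di minus EGFP the count of 0 was 2 without the 3 libraries and hM4Di 1 and 35 with DESeq2. With the replicate number as a block the direct count was 0, also 0 with only the 6 libraries fitted, and 4 for rM3Ds minus EGFP. The deviations of same-numbered rM3Ds and hM4Di libraries from their group means correlated at -0.40, -0.09 and -0.41. With 3 libraries per group, of which some stand apart, these values cannot show whether same-numbered libraries shared a culture.

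Of 779 comparisons of the 41 named genes with an alternative, 711 kept direction and side of the threshold, 21 lost a call, 35 gained one and 12 changed sign. Per1 was at -0.04 without rM3Ds 1 and -0.05 without hM4Di 2, its range on leaving out 1 library being -0.05 to 0.16, and Adcy1 was at -0.16 with the term. Without the 3 libraries and hM4Di 1, Egr1 was at 0.08, Pde4a at 0.01 and Crtc1 at 0.08. Gfap was at -0.11 without rM3Ds 2, -0.05 without rM3Ds 3, -0.35 without hM4Di 2, -0.23 without hM4Di 3 (highest 1.58, without hM4Di 1), -0.89 without the 3 libraries and -1.61 with the term. The cause was not tested in any of these. A floor of 3 counts limits what is said of genes under 0.187 CPM.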

Other observations

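Cholesterol synthesis genes were low in 1 hM4Di library. Idi1, an isomerase of the pathway, had 137, 140 and 142 CPM with rM3Ds, against 63.2, 159 and 142 CPM with hM4Di. The list's median log2 fold change over 24 genes was 0.17, with 19 above 0 and none called, and -0.01 with 12 above 0 when hM4Di 1 was left out. The same library held the highest interferon-stimulated levels.

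Several genes were high in rM3Ds 2 and 3 and in no other library of the comparison, EGFP control 1 included. Pcdhga9, a clustered protocadherin whose reads may be shared with its cluster, had 0.513, 59.1 and 72.7 CPM with rM3Ds, against 0.831, 0.693 and 0.158 CPM with hM4Di and 1.14, 0.400 and 1.56 CPM with EGFP. Pcdhb7, another clustered protocadherin, had 2.00, 18.8 and 20.9 CPM with rM3Ds, against 0.950, 0.736 and 1.48 CPM with hM4Di. Slco1c1, a thyroid hormone transporter, had 1.60, 24.6 and 30.4 CPM with rM3Ds, against 0.514, 1.17 and 1.48 CPM with hM4Di. Cxcl14, a chemokine, had 1.20, 10.0 and 10.3 CPM with rM3Ds, against 0.712, 0.866 and 1.05 CPM with hM4Di. None of these passed edgeR's test, and DESeq2 called all 4 higher.

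Among single genes outside the interferon list, named after their values were seen, Ly6e had 91.2, 61.3 and 56.4 CPM with rM3Ds, against 312, 136 and 149 CPM with hM4Di and 72.8, 88.4 and 100 CPM with EGFP. Irgm1, an immunity-related GTPase, had 374, 318 and 315 CPM with rM3Ds, against 848, 560 and 523 CPM with hM4Di and 352, 385 and 444 CPM with EGFP. Ddit3, a stress-induced transcription factor, had 67.6, 62.9 and 52.1 CPM with rM3Ds, against 104, 81.2 and 85 CPM with hM4Di and 72.8, 60.8 and 63.2 CPM with EGFP. Svep1, a large matrix protein, was low with hM4Di, at 63.0, 77.1 and 96.0 CPM with rM3Ds, against 26.4, 41.7 and 30.2 CPM with hM4Di and 76.7, 80.0 and 66.5 CPM with EGFP. These did not pass edgeR's test either, and DESeq2 called Svep1 higher and the other 3 lower.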
